A study of Mus musculus with 9 samples.

Results

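The rodent miR-297, miR-466, miR-467 and miR-669 families were followed through acute acetaminophen injury of the mouse liver. Members were all rows of the deposited miRNA table whose name, after the mouse prefix was removed, is 1 of these 4 numbers with an optional letter and arm suffix, and they came to 41 of 946 rows. By family there were 3 rows of miR-297, 19 of miR-466, 7 of miR-467 and 12 of miR-669. Some rows held exactly the same counts in all 9 libraries, and with such rows of at least 10 reads counted once the 41 rows became 38 read sets. Small RNA was sequenced from livers of wild-type C57 BL6 mice aged 8 weeks, in 3 groups of 3 libraries. Control mice received saline. APAP mice were injected intraperitoneally with acetaminophen (APAP) at 500 mg/kg. The dmPGE2+APAP mice were given that same injection 1 h after 300 µg/kg of dmPGE2, a stabilised form of the lipid mediator prostaglandin E2. Livers were taken 6 h after APAP. A group with dmPGE2 and no APAP is not analysed here, so dmPGE2 was compared only on top of APAP. Whether every library came from its own mouse is not labelled, and the p-values therefore reflect library-to-library spread that may be only technical.

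MicroRNAs are cut from hairpin precursors, and either arm of the hairpin (5p or 3p) can be loaded into the silencing complex, where the seed near the 5′ end pairs with target messages. Most hairpins of these families sit in tandem in an intron of Sfmbt2, a Polycomb-related gene that is expressed from the paternal copy and is needed in the placenta, and the array is a rodent expansion. Many copies give the same or nearly the same mature sequence, so reads cannot always be traced to 1 hairpin.

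RefSeq on GRCm38.p6, the build that mm10 names, placed 72 miRNA genes inside Sfmbt2 (chromosome 2, 10370440 to 10595253), and 0 of them belonged to another family. They ran from 10466663 to 10518279, a stretch of 51617 bases, with a median of 296 bases from 1 hairpin start to the next. The array held 5 miR-297, 24 miR-466, 14 miR-467 and 29 miR-669 hairpins. Of the 41 member rows, 32 had every hairpin of their name inside Sfmbt2, 4 had hairpins both inside and outside it (22 reads, kept apart from both), 3 had none inside it, and 2 (both of miR-466a) matched no hairpin by name. The rows outside were miR-466i-5p and miR-466i-3p, from a hairpin at chromosome 13, 17747473 to 17747593, and miR-466k at chromosome 3, 85467377 to 85467498. The miR-466i hairpin overlaps the span of Cdk13, which encodes a transcription-linked kinase, on the opposite strand. The miR-466k hairpin overlaps the long non-coding gene Gm31419, also on the opposite strand. The tables used here give gene spans without exons, so intron and exon were not separated.

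**Figure D1:**
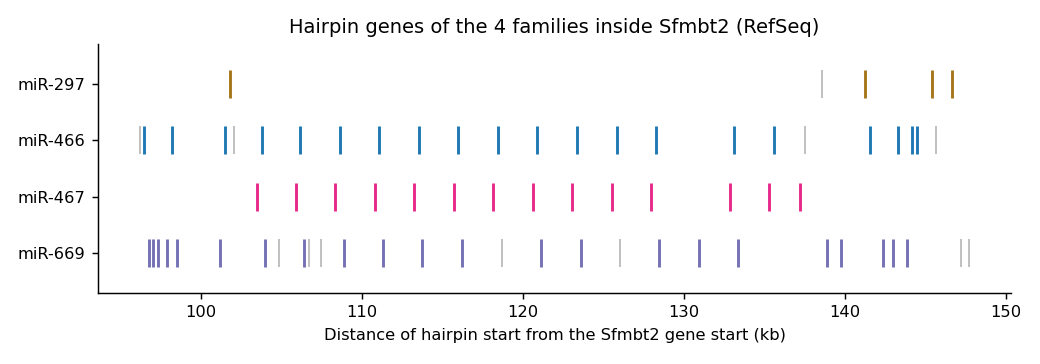
Distance of each hairpin start from the start of Sfmbt2, in kb, with 1 row of ticks per family. Coloured ticks are hairpins matched by name to a row of the miRNA table. Grey ticks are hairpins without such a match, and the rows of miR-466a matched none of the hairpins by name. Hairpins of miR-466, miR-467 and miR-669 recur at a regular spacing through the middle of the array.

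Mature sequences of 2 of the 41 rows were found in the RefSeq table, and they are shown because they carry the dinucleotide repeats of these families; the first is the opposite arm of the hairpin that gives miR-466i-5p, the member with the highest level in dmPGE2+APAP livers. They are written 5′ to 3′ with the seed, bases 2 to 8, in capitals. The first lies at chr13:17747552-17747573 and the second at chr3:85467396-85467418, both on the plus strand of GRCm38.p6.
miR-466i-3p: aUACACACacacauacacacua
miR-466k: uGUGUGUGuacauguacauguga
The longest alternating run was 11 bases of a and c in miR-466i-3p and 9 bases of u and g in miR-466k. Neither seed was shared with another row of the table that had a sequence (0 rows each). The other member rows had no sequence here, so a seed shared within these families could not be seen. Both rows were nearly empty, with 1 read of miR-466i-3p and 4 of miR-466k over all libraries.

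Libraries held between 1038799 and 10483460 reads. The shallowest was dmPGE2+APAP replicate 2, where 3 reads, the limit that a count of 0 allows, correspond to 2.89 CPM of its total, against 0.286 in the deepest, Control replicate 3. Intervals and limits given here cover counting error only, since copies made by PCR are not separate molecules. All 5 rows of the hepatocyte list (with miR-122-5p, the main hepatocyte miRNA) were detected in every library, and their summed level was 375756 to 525118 CPM (counts scaled to a common library size, with TMM factors) in Control, 328754 to 388422 in the APAP group and 353285 to 392886 in dmPGE2+APAP.

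These families were scarce in liver. The 38 read sets held 2801 reads in all libraries together. Of these, 44.6% belonged to miR-467, 35.1% to miR-466, 19.8% to miR-669 and 0.464% to miR-297. By arm, 96.4% of the reads lay in 25 read sets of the 5p arm, 3.18% in 10 of the 3p arm and the rest in 3 rows named without an arm. Hence nearly all the signal came from 5p strands. Read sets with every matched hairpin in Sfmbt2 held 69.1% of the reads, and the 3 outside it held 30.1%, nearly all of it miR-466i-5p.

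The most abundant member was miR-467a-5p, with 1074 reads in all libraries and a mean of 17.9 CPM, which ranked 170 of 946 rows. The row of miR-467b-5p had the same count in every library. The name miR-467a belongs to 10 hairpins of the array and miR-467b to 1. Next came miR-466i-5p, with 837 reads from a name with 1 hairpin, a mean of 15.96 CPM and rank 184. The rule for reads with several matches is not named, so these reads are placed at that hairpin by name only. The number of hairpins did not order the levels: miR-669a-5p, with 12 hairpins, had 201 reads, and miR-669c-5p, with 1 hairpin, had 203, while miR-466b-5p, with 8 hairpins, had 20.

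Only 6 of the 41 rows, or 5 read sets, passed the filter on low counts, which keeps rows with enough reads in at least as many libraries as the smallest group. This is 14.6% of the members, beside 38.1% of the 946 rows of the table and 26.7% of 75 rows from Dlk1-Dio3, the other large imprinted miRNA array. Rows with fewer than 10 reads in all made up 48.8% of the members, 42.4% of the table and 40% of Dlk1-Dio3, whose mean level reached 69.6 CPM in miR-411-5p. No test of these shares was made.

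The other 33 read sets (35 rows) held 401 reads together, with a median of 7 and a highest total of 52. Of them, 20 had fewer than 10 reads, 6 had a single read and 7 were seen in 1 library only. The fullest was miR-669o-5p, with 9, 4 and 6 reads in Control, 6, 13 and 0 in the APAP group and 8, 3 and 3 in dmPGE2+APAP. It was followed by miR-467e-5p, with 5, 8 and 11 reads in Control, 9, 2 and 3 in the APAP group and 3, 0 and 6 in dmPGE2+APAP. The counts of both overlapped between groups. Then came miR-466c-5p with 39 reads, miR-669l-5p with 31, miR-669a-3p with 27 and miR-467d-5p with 26. The rows of miR-466a-3p and miR-466b-3p held the same 15 reads, and those of miR-467a-3p and miR-467d-3p the same 18. The rows miR-466f and miR-466f-5p held equal counts too, 7 reads each, but stayed below the minimum for counting rows once.

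The fewest read sets were detected in the shallowest library. In Control 22, 20 and 26 of the 38 read sets had at least 1 read, in APAP 22, 24 and 23, and in dmPGE2+APAP 19, 9 and 22. When every library was thinned to the 1038799 reads of the shallowest, the numbers were 9, 5 and 10 in Control, 11, 14 and 18 in the APAP group and 10, 9 and 10 in dmPGE2+APAP. At equal depth the value of dmPGE2+APAP replicate 2 was thus within the Control range and below all APAP values. The 3 APAP libraries had the 3 highest values there. Thinning was a single random draw.

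**Figure D2:**
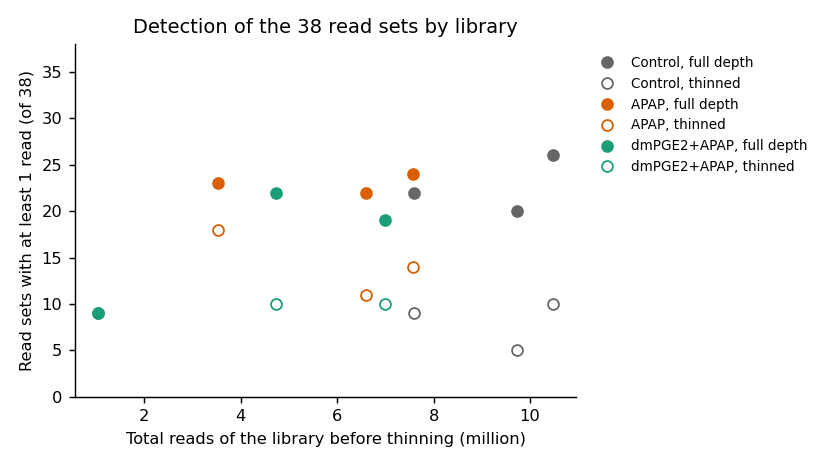
Number of the 38 read sets with at least 1 read in each library (vertical) against the library's total reads before thinning (horizontal). Filled points are full depth and open points are after thinning to 1038799 reads; at full depth dmPGE2+APAP replicate 2 has 9 and the other libraries 19 to 26.

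The summed level of the 38 read sets overlapped between the 3 groups. It was 44.9, 42.4 and 49.9 CPM in Control, 48.1, 51.1 and 58.1 in the APAP group, and 54.0, 39.2 and 53.8 in dmPGE2+APAP. The means were 45.7 ± 3.84 (SD, n = 3), 52.4 ± 5.15 and 49.0 ± 8.48, and the ranges of all pairs of groups overlapped. On the log2 scale the ratio of means was 0.20 for APAP over Control, -0.10 for dmPGE2+APAP over APAP and 0.10 for dmPGE2+APAP over Control. With library totals in place of TMM the first became 0.44. The sign of the others turned with the rows summed, to 0.08 without miR-467a-5p against APAP and to -0.05 with identical rows counted each time against Control. No test was run on sums over members. In whole liver, fewer cells of a type and less RNA per cell cannot be told apart.

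The makeup of that sum was then followed by hairpin location. Members with every hairpin in Sfmbt2 summed to 35.5, 29.2 and 36.8 CPM in Control, 34.0, 42.5 and 39.9 in the APAP group, and 29.8, 17.0 and 27.4 in dmPGE2+APAP. All dmPGE2+APAP values lay below all APAP values and overlapped the lowest Control value. Members outside Sfmbt2 summed to 8.80, 13.2 and 12.8 CPM in Control, 13.8, 8.08 and 16.3 in the APAP group, and 24.0, 21.3 and 26.2 in dmPGE2+APAP. Here every dmPGE2+APAP library lay above every other library. Nearly all of the sum outside was miR-466i-5p, with 837 of 842 reads. In dmPGE2+APAP, members inside Sfmbt2 thus lay below APAP and this single member above it, with the sum over all members between. Inside and outside are locations by name only, since the rule for reads with several matches is not named. The rule that every hairpin lie in Sfmbt2 was chosen after seeing the data. Whether the sums inside and outside differed from each other was not tested.

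Summed by family, the 12 read sets of miR-669 gave 8.36, 11.4 and 9.03 CPM for Control, 13.0, 12.7 and 10.04 for APAP and 7.63, 5.97 and 6.13 for dmPGE2+APAP, so the last group lay below both others without overlap, on 54, 7 and 30 reads. The 5 read sets of miR-467 gave 25.7, 15.8 and 26.3 CPM for Control, 19.0, 26.8 and 25.3 for APAP and 18.9, 11.1 and 18.8 for dmPGE2+APAP, and here the ranges of dmPGE2+APAP and Control overlapped. The miR-466 family lay the other way. Its 18 read sets gave 10.6, 15.2 and 14.5 CPM for Control, 16.1, 10.8 and 22.2 for APAP and 27.3, 21.3 and 28.6 for dmPGE2+APAP, which was above Control without overlap and overlapped APAP. Without miR-466i-5p the other 17 gave 1.76, 2.04 and 1.66 CPM for Control, 2.30, 3.29 and 6.22 for APAP and 3.25, 0 and 2.45 for dmPGE2+APAP, where 0 stands for no read in the shallowest library. The log2 ratio of means of these 17 was -1.05 for dmPGE2+APAP over APAP and 0.06 over Control. The miR-297 family held 0 to 5 reads a library. The 33 read sets too low to test summed to 5.58, 6.11 and 5.44 CPM for Control, 7.49, 9.86 and 11.96 for APAP and 5.80, 5.11 and 7.77 for dmPGE2+APAP. All 3 APAP values of these sparse strands lay above all Control values, with 38 to 72 reads a library in these groups. These sums are descriptions with no test.

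**Figure D3:**
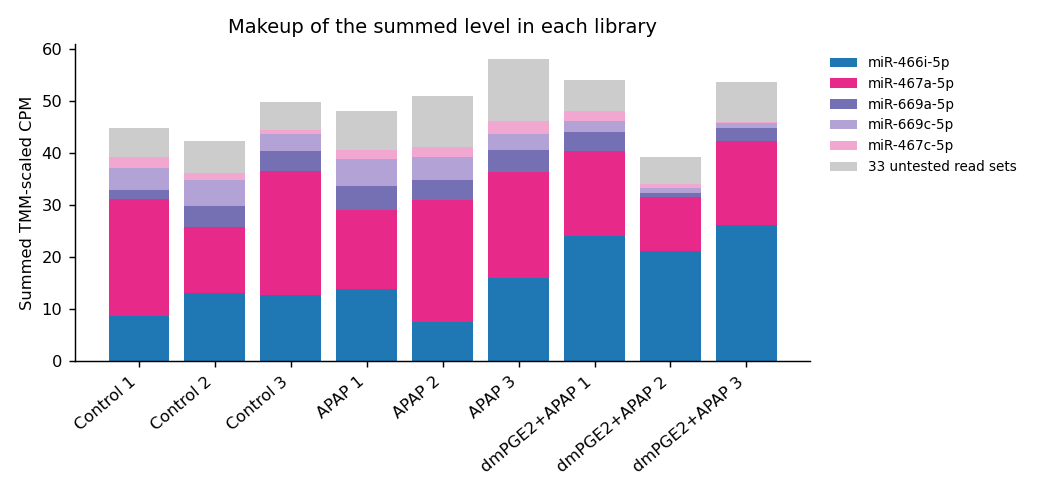
Summed CPM of the members in each of the 9 libraries, stacked by the 5 tested read sets and the 33 others. The miR-466i-5p segment is 21.3 to 26.2 CPM in the dmPGE2+APAP libraries and 7.53 to 16.02 CPM in the other 6.

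The share of miR-466i-5p among the members' reads, which no library scaling can alter, was highest in the same 3 libraries. It was 19.6% (95% Wilson interval 15.5 to 24.4), 31.1% (26.2 to 36.4) and 25.6% (22.2 to 29.5) in Control. In APAP it was 28.7% (24.2 to 33.8), 14.7% (11.5 to 18.7) and 27.6% (22.3 to 33.5). In dmPGE2+APAP it was 44.5% (39.6 to 49.5), 54.3% (40.2 to 67.8) and 48.7% (42.7 to 54.7). The intervals of the dmPGE2+APAP libraries lay above those of all other libraries. They cover counting error only, and intervals within a group could also lie apart, as in Control replicates 1 and 2. The share also depends on the levels of the other members. Set against miR-467a-5p, miR-466i-5p had 0.39, 1.04 and 0.54 times as many reads in Control, 0.91, 0.32 and 0.79 times in the APAP group, and 1.47, 2.08 and 1.62 times in dmPGE2+APAP.

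After acetaminophen alone, no tested member stood apart from Control. In this comparison 0 of 6 member rows reached an adjusted p of 0.05 in edgeR (quasi-likelihood, Benjamini-Hochberg over the 360 rows tested), where 0.833% of all rows passed. At an unadjusted p under 0.05 there were also 0 of 6 member rows, beside 9.72% of all rows, and DESeq2 and limma-voom called 0 members as well. Of the 5 read sets, 4 had a log2 value above 0 and 1 below, with a median of 0.09 where all tested rows had -0.05. Of all 360 rows, 55.3% lay below 0. The abundant miR-467a-5p had 22.4, 12.6 and 23.9 CPM in Control and 15.3, 23.4 and 20.3 in APAP. The groups overlapped throughout, and the log2 change was 0.00 (SE 0.29, 95% interval -0.58 to 0.58). For miR-466i-5p the values were 8.80, 13.2 and 12.8 CPM in Control and 13.8, 7.53 and 16.02 in APAP, with a log2 value of 0.09 (SE 0.30, interval -0.51 to 0.68). Intervals of this width do not show that the levels were equal.

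The miR-669 strands and the low miR-467c-5p overlapped as well. miR-669a-5p, known for repressing the muscle factor MyoD in heart progenitors, had 1.76, 4.08 and 3.78 CPM in Control and 4.61, 3.97 and 4.30 in APAP, a log2 value of 0.41 (SE 0.40). miR-669c-5p had 4.11, 5.03 and 3.32 CPM in Control and 5.18, 4.38 and 3.11 in APAP, a log2 value of 0.05 (SE 0.37). miR-467c-5p, with 8 to 15 reads a library in these groups, had 2.20, 1.36 and 0.74 CPM in Control and 1.73, 1.92 and 2.39 in APAP, a log2 value of 0.51 (SE 0.58). All 3 overlapped between the groups, with edgeR's adjusted p between 0.747 and 0.987.

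With dmPGE2 before APAP, miR-466i-5p stood higher and miR-669c-5p lower than with APAP alone, and neither passed over all rows. Members called at an adjusted p of 0.05 by edgeR were 0 of 6, beside 0.278% of all 360 rows. At an unadjusted p under 0.05 there were 2 of 6 member rows, beside 6.39% of all rows. DESeq2 and limma-voom also called 0 members. Of the 5 read sets 1 had a value above 0 and 4 below, with a median log2 of -0.64 where all tested rows had 0.00. Of all 360 rows, 50% lay below 0. The 5 read sets come from the same libraries and are not separate observations.

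The level of miR-466i-5p was 13.8, 7.53 and 16.02 CPM in the APAP group and 24.0, 21.3 and 26.2 CPM in dmPGE2+APAP. The groups did not overlap, the means being 12.5 ± 4.41 and 23.8 ± 2.44 (SD, n = 3). The share of all 360 tested rows without overlap was not counted in any comparison, so separation of groups is given as description only. The log2 difference was 0.96 (SE 0.31), with an unadjusted p of 0.00687, the 9th lowest of 360, and edgeR's adjusted p of 0.273. In reads this rests on 218 in the APAP group and 323 in dmPGE2+APAP. Over 19 alternatives the value ranged from 0.70 to 1.22 and the adjusted p from 0.106 to 0.870, so 0 of them passed. Without the shallow dmPGE2+APAP replicate 2 it was 1.07 (edgeR adjusted p 0.229).

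The values of miR-669c-5p ran the other way, at 5.18, 4.38 and 3.11 CPM in the APAP group and 2.12, 0.85 and 1.02 in dmPGE2+APAP. Again the groups did not overlap. The reads behind these values were 36, 32 and 13 in APAP but 15, 1 and 5 in dmPGE2+APAP, and the single read of replicate 2 has an exact 95% Poisson interval of 0.022 to 4.75 CPM, which reaches APAP values. The log2 difference was -1.48 (SE 0.44), with an unadjusted p of 0.00426, the 8th lowest of 360, and edgeR's adjusted p of 0.192. Only 3 of the 360 tested rows had a lower log2 value in this comparison. Over 17 alternatives it ranged from -2.10 to -1.19, with an adjusted p of 0.128 to 0.717. Without dmPGE2+APAP replicate 2 it was -1.34 (0.386), and without dmPGE2+APAP replicate 1 it was -2.10 (0.128).

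The other tested strands of the Sfmbt2 array also had lower values, by smaller amounts. miR-467a-5p had 15.3, 23.4 and 20.3 CPM in the APAP group and 16.4, 10.2 and 16.2 in dmPGE2+APAP, overlapping, with a log2 value of -0.41 (SE 0.31, 95% interval -1.02 to 0.19). miR-669a-5p had 4.61, 3.97 and 4.30 CPM in the APAP group and 3.68, 0.85 and 2.45 in dmPGE2+APAP, without overlap, with a log2 value of -0.64 (SE 0.44). miR-467c-5p had 1.73, 1.92 and 2.39 CPM in the APAP group and 1.98, 0.85 and 0.20 in dmPGE2+APAP, with a log2 value of -0.78 (SE 0.67). It rests on 14, 1 and 1 reads in the last group, and its value was -2.46 without dmPGE2+APAP replicate 1 and -0.18 without replicate 3. For these 3 edgeR's adjusted p was 0.896.

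**Figure D4:**
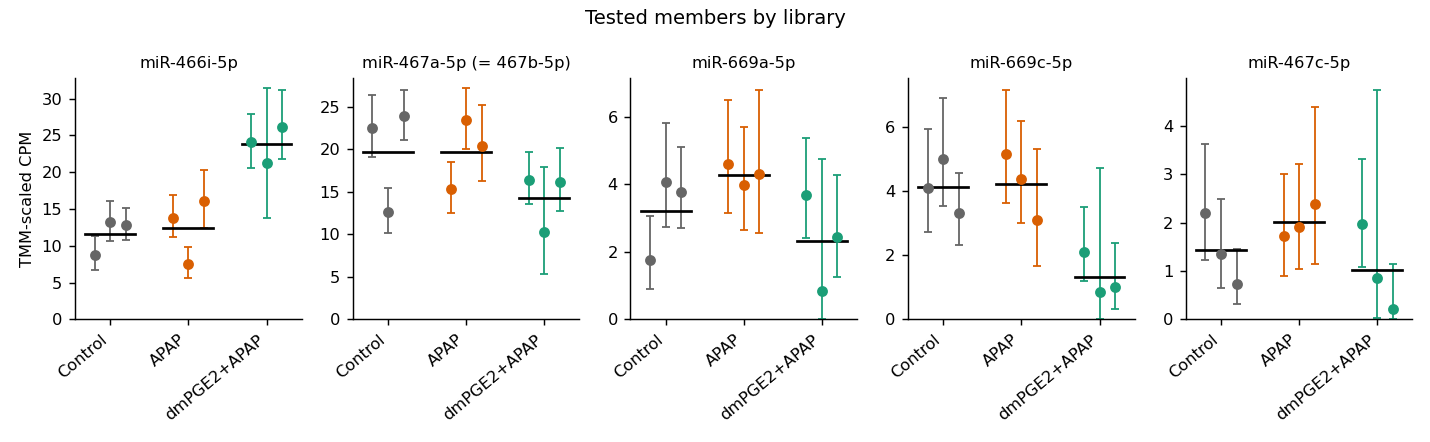
TMM-scaled CPM of the 5 tested read sets in each library, by group. Points are libraries, vertical bars are exact 95% Poisson counting intervals and black lines are group means; miR-466i-5p is highest and miR-669c-5p lowest in the 3 dmPGE2+APAP libraries.

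Compared with Control, livers given both drugs showed the same pair of members apart, in a comparison that shares the dmPGE2+APAP libraries with the previous one. Here edgeR called 0 of 6 member rows at an adjusted p of 0.05, beside 0.278% of all rows, and 2 of 6 had an unadjusted p under 0.05, beside 10.6% of all rows. DESeq2 and limma-voom again called 0. miR-466i-5p had a mean of 11.6 ± 2.43 CPM in Control and 23.8 ± 2.44 in dmPGE2+APAP (SD, n = 3), all 3 libraries of the latter being higher. The log2 difference was 1.05 (SE 0.31), with an unadjusted p of 0.00355, the 5th lowest of 360, and edgeR's adjusted p of 0.206. The adjusted p ranged from 0.0620 (DESeq2) to 0.384 over 19 alternatives.

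miR-669c-5p had a mean of 4.15 ± 0.86 CPM in Control and 1.33 ± 0.69 in dmPGE2+APAP, without overlap, a log2 difference of -1.43 (SE 0.44). The adjusted p in edgeR was 0.229, and it was 0.160 to 0.448 over 17 alternatives. The remaining strands overlapped between these groups. Their log2 values were -0.41 (SE 0.31) for miR-467a-5p, -0.24 (SE 0.44) for miR-669a-5p and -0.27 (SE 0.67) for miR-467c-5p. The median of the 5 read sets was -0.27, where that of all tested rows was -0.03 and 53.9% of them lay below 0.

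**Figure D5:**
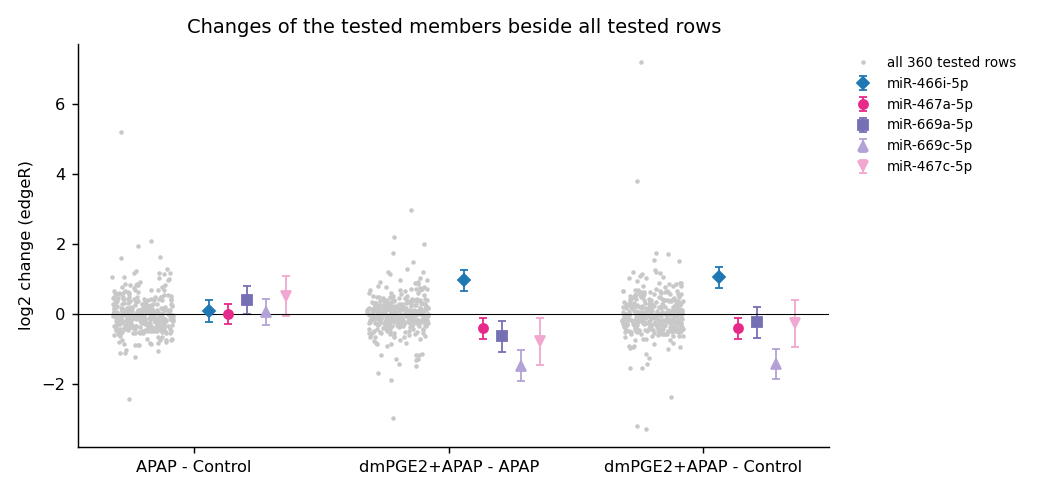
Log2 change from edgeR in the 3 comparisons, for all 360 tested rows (grey points, spread sideways for display) and the 5 tested read sets (symbols, with bars of 1 SE). In both comparisons with dmPGE2+APAP, miR-466i-5p lies near 1 and the other 4 lie below 0.

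Among markers of other cells, only the red-cell list lay apart between the groups, and the ranges of the other lists overlapped. The red-cell list (4 of 4 rows detected in all libraries) summed to 431 to 543 CPM in Control, 731 to 1398 in the APAP group and 352 to 379 in dmPGE2+APAP. The myeloid list (4 of 4) summed to 124 to 233, 177 to 319 and 153 to 238 CPM, and the muscle list (3 of 3) to 481 to 2699, 313 to 902 and 340 to 720 CPM. Lymphocyte markers (2 of 2) lay at 13.9 to 33.1, 20.1 to 33.1 and 26.0 to 30.9 CPM, endothelial markers (2 of 2) at 7437 to 9115, 7990 to 9434 and 8788 to 10174, and mesenchymal markers (3 of 3) at 25797 to 41509, 24393 to 37010 and 25670 to 41458. Their part in the values of miR-466i-5p and miR-669c-5p was not tested. No defining marker of these lists was at 0 in any library.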

How the data were processed

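The authors deposited, per the file headers, a whole-number read count for each mature miRNA row of each library. Bowtie and mm10 are the tool and build listed in the submitters' processing notes; how reads were counted, against which miRNA set, and with what rule for several matches are not named there. TPM values, also deposited by the authors, carry no length term and were used in 1 alternative. Columns prefixed BC were taken as Control, the only group without a column of its name, and 0 value columns stayed unused.

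Tests ran in edgeR 4.0.16 under R 4.3.3 (TMM; filterByExpr with minimum count 10 and minimum total 15; robust quasi-likelihood), with the 9 libraries in 1 fit of 3 group means, Benjamini-Hochberg adjustment over all 360 rows tested and a threshold of 0.05. SEs derive from the F statistic, and 95% intervals of log2 changes assume a normal error. DESeq2 1.42.0 and limma 3.58.1 (voom, and log2(TPM + 1)) were alternatives, beside library totals, other filters, thinning, merged rows, 2-group fits, the replicate block and each library left out. The scripts were tested on simulated data. Library values are given for up to 12 of the most abundant tested members (5 read sets existed) and for those with an unadjusted p under 0.05. Members and lists were chosen with earlier results of these data known. Hairpins were matched by name in RefSeq, for 39 of 41 rows. Members were called Sfmbt2-hosted only where every hairpin lies there, a stricter split than the planned 1 hairpin or more, chosen after seeing the data.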

Additional observations from a re-analysis of the deposited data

How the results depend on the processing

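No member was called (0 of the tested member rows) in any of the 3 comparisons under any of 19 alternatives, each library left out included. Of 266 log2 values of tested members under alternatives, 244 kept their direction and their side of the threshold and 22 changed sign, with reported values between -0.27 and 0.09. For APAP over Control, miR-467a-5p (0.00) became 0.20 with library totals, 0.0103 at a mean of at least 10 CPM, 0.0140 with 2 groups fitted, 0.0537 with the replicate block, 0.0327 with identical rows merged, 0.0223 with DESeq2, 0.0194 with limma-voom and 0.27 with TPM, and -0.22 to 0.18 with a library left out. There miR-466i-5p ranged from -0.12 to 0.37 and miR-669c-5p from -0.10 to 0.23 with a library left out, the latter being -0.0049 with no filter. For dmPGE2+APAP over Control, miR-467c-5p ranged from -1.93 to 0.36 and miR-669a-5p from -0.65 to 0.0106, the latter without dmPGE2+APAP replicate 2. The summed log2 ratio for APAP over Control, 0.20, was 0.44 with library totals or summed TPM, 0.33 without the most abundant read set and 0.62 after thinning, and 0.12 to 0.26 with a library left out. For dmPGE2+APAP over Control, 0.10, it was 0.32 with library totals or summed TPM, 0.41 without the most abundant read set and 0.60 after thinning, and 0.02 to 0.24 with a library left out. Chosen after seeing the data, the sum without miR-466i-5p gave -0.67 against APAP and -0.44 against Control, and the sum over members with all hairpins in Sfmbt2 gave -0.65 and -0.45. For dmPGE2+APAP over APAP, -0.10, it ranged from -0.17 to 0.04 with a library left out, the latter without dmPGE2+APAP replicate 2, and was 0.08 without the most abundant read set and 0.0036 over tested members only. Counting every member row, identical ones included, gave 0.15, -0.20 and, with the direction turned, -0.05 for APAP over Control, dmPGE2+APAP over APAP and dmPGE2+APAP over Control, and tested members only gave 0.09 for APAP over Control. The sums after thinning used counts without TMM factors, as did those with library totals, and rest on a single random draw. The cause of these shifts was not tested.

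Over all rows, calls for APAP over Control (3) were 8 with library totals, 9 with no filter, 0 at a mean of at least 10 CPM, 7 with 2 groups fitted, 0 with the replicate block, 0 after thinning, 7 with identical rows merged, 13 with DESeq2, 8 with TPM and 0 to 9 with a library left out (9 without APAP replicate 2; 0 without APAP replicate 1, APAP replicate 3 or Control replicate 2). For dmPGE2+APAP over APAP (1) they were 9 with no filter, 0 with 2 groups fitted, 2 with the replicate block, 3 after thinning, 8 with DESeq2 and 0 to 5 with a library left out (5 without APAP replicate 2, 4 without dmPGE2+APAP replicate 1; 0 without APAP replicate 1 or dmPGE2+APAP replicate 2). For dmPGE2+APAP over Control (1) they were 2 with library totals, 2 with no filter, 0 at a mean of at least 10 CPM, 0 after thinning, 2 with identical rows merged, 2 with DESeq2 and 1 to 2 with a library left out (2 without APAP replicate 3 or dmPGE2+APAP replicate 1). The labels do not state whether replicate numbers pair the libraries. Same-numbered libraries correlated between -0.25 and 0.17 in their deviations from group means, and differently numbered ones between -0.28 and 0.15. With 3 libraries a group these values cannot settle whether libraries are paired. With the replicate block miR-466i-5p stood at 0.97 and 1.03 and miR-669c-5p at -1.48 and -1.48 against APAP and Control, and 0 members were called. Depth limits the members with a mean under 5 CPM most, where dmPGE2+APAP replicate 2 held 1 read of each tested one.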
